A study of Mus musculus with 6 samples.

Results

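Lysophospholipid acyltransferases are enzymes that put a fatty acid back on a phospholipid that has lost one. The genes described here are the 9 symbols Mboat1, Mboat2, Mboat7, Lpcat3, Lpcat1, Lpcat2, Lpcat4, Lclat1 and Lpgat1, out of 21996 named genes on the array. Each was read by the 1 probe set whose platform annotation gives that symbol alone, and all 9 were measured. The members were chosen by symbol, by the highest mean level among a gene's probe sets, and with their log2 changes between these same groups already known. Their own changes are therefore given as a description and carry no p-values. Whether a member passed a threshold, and its interval, describe these same values and give no independent support.

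The RNA came from C3H10T1/2 adipocytes, fat cells differentiated in the dish from a multipotent mouse mesenchymal line, and was read on Affymetrix Mouse Gene ST arrays. In 3 biological replicates the cells had received an adenovirus coding for a short hairpin against Zc3h10, the gene of a CCCH zinc finger protein (Zc3h10 shRNA), and in 3 an adenovirus with a scrambled hairpin (scramble). All 6 cultures were labelled as differentiated for 9 days, and both viruses were given at a multiplicity of infection of 50 for 72 h, with the targeting hairpin under a U6 promoter, per the labels. Only 1 targeting construct is named, so effects of that hairpin sequence and of lower Zc3h10 cannot be told apart. Values are deposited probe set intensities on a linear scale, and a log2 change is the Zc3h10 shRNA mean minus the scramble mean, with the standard error (SE) of a limma fit over all 33079 probe sets. A gene is said to have risen or fallen when its limma p-value, adjusted by the Benjamini-Hochberg method over the whole array, was under 0.05.

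Cells first make phospholipids from glycerol-3-phosphate and then exchange their fatty acids. A phospholipase removes a chain, and a lysophospholipid acyltransferase adds another from an acyl-CoA, a cycle named after Lands that sets how saturated a membrane is. The mammalian enzymes belong to an unrelated pair of families. The MBOAT family (Mboat1, Mboat2, Mboat7, Lpcat3) consists of proteins that cross the membrane many times. The AGPAT family (Lpcat1, Lpcat2, Lpcat4, Lclat1, Lpgat1) also holds the enzymes that make phosphatidic acid. In a fat cell, phospholipids form the monolayer around each lipid droplet as well as the membranes.

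A start region of each gene that rose or fell is printed here, to show the DNA around an annotated start. They are RefSeq windows on build GRCm38.p6, on the plus strand, from 250 bases before to 50 after an annotated start, and 9 of 9 members matched that table. Capitals mark every copy of the CCAAT box (CCAAT) and of the GC box (GGGCGG), searched on both strands, and copies may overlap each other.
Mboat1, chr13:30136240-30136539: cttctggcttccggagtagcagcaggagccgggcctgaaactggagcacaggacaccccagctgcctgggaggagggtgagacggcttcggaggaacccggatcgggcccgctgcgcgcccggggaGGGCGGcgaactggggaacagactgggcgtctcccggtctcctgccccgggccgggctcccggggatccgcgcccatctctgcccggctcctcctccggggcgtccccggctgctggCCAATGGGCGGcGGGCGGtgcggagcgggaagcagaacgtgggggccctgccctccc
Lpgat1, chr1:191717774-191718073: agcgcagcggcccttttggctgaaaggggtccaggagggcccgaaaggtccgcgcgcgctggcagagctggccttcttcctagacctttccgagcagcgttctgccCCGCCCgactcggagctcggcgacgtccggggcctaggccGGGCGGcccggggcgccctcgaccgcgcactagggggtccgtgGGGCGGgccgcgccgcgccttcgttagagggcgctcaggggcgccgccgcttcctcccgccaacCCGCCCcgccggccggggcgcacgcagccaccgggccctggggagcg
Lpcat3, chr6:124662854-124663153: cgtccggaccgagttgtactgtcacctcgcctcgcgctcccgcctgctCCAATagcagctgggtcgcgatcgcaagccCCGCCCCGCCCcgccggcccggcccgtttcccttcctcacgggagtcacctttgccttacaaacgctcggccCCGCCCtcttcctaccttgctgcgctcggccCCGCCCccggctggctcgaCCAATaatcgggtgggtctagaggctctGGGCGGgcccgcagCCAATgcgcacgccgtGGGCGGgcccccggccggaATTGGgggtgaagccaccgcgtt
The Mboat1 window held 1 CCAAT box and 3 GC boxes. The Lpgat1 window held 0 CCAAT boxes and 4 GC boxes, and a second annotated Lpgat1 start held 0 and 2. The annotated Lpgat1 gene begins at base 191717554, so its windows lie inside the gene and hold no DNA from before its first base. The Lpcat3 window held 4 CCAAT boxes and 6 GC boxes. A GC box was found in all 10 windows of the 9 members, beside 35.7% of 32851 windows in the table, and a CCAAT box in 5 of 10, beside 37.4%. The member windows were 54.7% to 79.7% G and C, where the median window had 52.7%, and a GC-rich window holds GC boxes more easily. These matches describe letters only.

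Across the array, median intensities were 15.6 to 16.1, and log2 values correlated at r of 0.992 to 0.994 within groups and 0.985 to 0.988 between groups. Of all probe sets, 3238 passed the threshold, of which 1426 rose and 1812 fell with the Zc3h10 hairpin. That count was 2068 without shRNA replicate 2, 1959 without shRNA replicate 3, 1807 without scramble replicate 2 and 2030 without scramble replicate 3. The targeted transcript itself read 25.2, 30.2 and 22.9 units on the Zc3h10 shRNA arrays, against 25.9, 39.0 and 35.3 on the scramble arrays. Its log2 change of −0.34 ± 0.17 did not pass (limma, adjusted p = 0.301). The knockdown named in the labels is therefore not shown by this probe set, and a failed knockdown is not shown either. The probe set means were 26.1 units in Zc3h10 shRNA cells and 33.4 in scramble cells. These are not far above the array medians, where the size of a change is uncertain. In a two-sided exact permutation test over the arrays p was 0.2, and no split of 3 against 3 can give less than 0.1. The labels call the replicates biological, without saying whether they came from separate differentiations.

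The acyltransferases did not move as a block. Mboat1 rose and Lpgat1 fell, both by more than 2-fold, Lpcat3 fell slightly, and the other 6 did not pass the array-wide threshold. The count of 3 in 9 stands beside 12.1% of all named genes past the threshold, or 21.7% of the 11512 that are not dim (mean log2 level at or above 4.37, a limit explained with Mboat2), and nothing is read from it, since the members were chosen with this contrast known. In direction, 1 of 9 rose (5.51% of named genes) and 2 of 9 fell (6.60% of named genes). The median log2 change of the 9 was 0.01, as it was over all named genes, with single values of −1.32 to 1.71. For 6 of the 9 genes the 3 arrays of each group kept apart without overlap, beside 31.9% of named genes and 50.2% of those that are not dim. Of these 6, 3 were higher (16.7% of named genes) and 3 lower (15.2%).

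**Figure D1:**
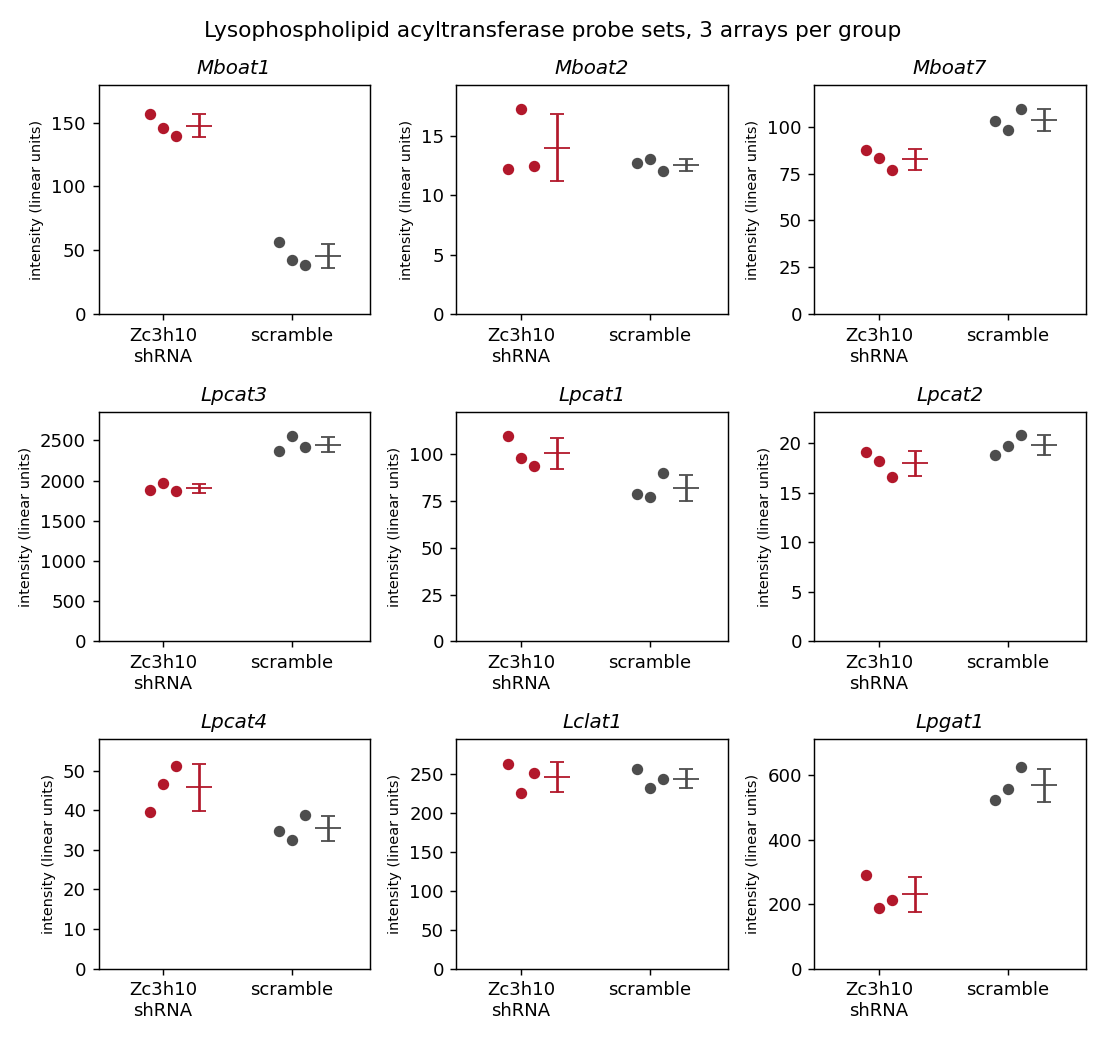
Intensity of each acyltransferase probe set (linear units, axes from 0) on the 3 Zc3h10 shRNA arrays (red, left) and the 3 scramble arrays (grey, right); bars beside the points are the mean and SD. Mboat1 lay at 139 to 157 on the Zc3h10 shRNA arrays, above all scramble arrays, and Lpgat1 at 188 to 291, below all of them. Heights are not comparable between panels, since probe sets differ in brightness.

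Within the MBOAT family, the clear change was in Mboat1, which encodes an acyltransferase for lysophosphatidylethanolamine and lysophosphatidylserine that favours oleoyl-CoA. Its probe set, 17286254, read 157, 146 and 139 units on Zc3h10 shRNA arrays 1 to 3, against 56.4, 42.5 and 38.3 on scramble arrays 1 to 3. Every Zc3h10 shRNA array was more than 2-fold above the brightest scramble array. The means were 147 ± 8.99 in Zc3h10 shRNA cells and 45.8 ± 9.46 in scramble cells (SD, n = 3 each). The log2 change was 1.71 ± 0.15, a 3.26-fold rise with a 95% confidence interval of 258% to 412% of the scramble level, and rank 13 among the rises of 21996 named genes. The call held without each single array in turn, with log2 changes of 1.59 to 1.87. With an offset of 32 before log2 the call also held, but the log2 change was 1.21. That is below the interval, whose lower end is a log2 change of 1.37.

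Mboat2 encodes the closest relative of Mboat1, an acyltransferase for lysophosphatidylcholine and lysophosphatidylethanolamine. It read 12.2, 17.2 and 12.5 units in Zc3h10 shRNA cells, against 12.7, 13.0 and 12.0 in scramble cells, so the groups overlapped and only shRNA replicate 2 stood above the rest. Its log2 change was 0.14 ± 0.14, with an interval of 87.9% to 138% of the scramble level. The mean log2 level was 3.79 in Zc3h10 shRNA cells and 3.65 in scramble cells. Both lay under 4.37. Of 1375 receptor genes for smell and pheromones, which few cells outside sensory tissue use, the middle 95% end at that level. At this level the size of a change is uncertain.

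Lpcat3, the fourth MBOAT member listed here, puts linoleoyl and arachidonoyl chains into phosphatidylcholine and is a known target of the liver X receptors, the nuclear receptors for oxysterols. It read 1881, 1973 and 1865 units on the Zc3h10 shRNA arrays, against 2368, 2558 and 2421 on the scramble arrays. The groups were apart, with means of 1906 ± 58.0 in Zc3h10 shRNA cells and 2449 ± 97.8 in scramble cells (SD, n = 3 each). The log2 change was −0.36 ± 0.08, or 77.9% of the scramble level with an interval of 68.0% to 89.2%. The call was lost without any 1 of the 6 arrays (log2 changes of −0.39 to −0.33) and after quantile normalization (−0.31).

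Mboat7, the enzyme that puts arachidonic acid into phosphatidylinositol, had values close to those limits. It read 87.7, 83.4 and 76.8 units in Zc3h10 shRNA cells, against 103, 98.2 and 109.5 in scramble cells. All Zc3h10 shRNA arrays lay below all scramble arrays, with a log2 change of −0.33 ± 0.09, or 79.8% of the scramble level (interval 68.6% to 92.8%). It did not pass the threshold, though it did with probe sets under the lower quartile or the median of level left out, with an intensity trend in the prior, and with an offset of 32 before log2, where the change was −0.24.

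In the AGPAT family the largest change was the fall of Lpgat1, named for its action on lysophosphatidylglycerol and also known to act on other lysophospholipids. Its probe set, 17220833, read 291, 188 and 212 units on Zc3h10 shRNA arrays 1 to 3, against 521, 558 and 624 on scramble arrays 1 to 3. Replicate 1 was the highest of the Zc3h10 shRNA arrays and still far below the scramble arrays. The means were 230.4 ± 53.6 in Zc3h10 shRNA cells and 568 ± 52.0 in scramble cells (SD, n = 3 each). The log2 change was −1.32 ± 0.16, 2.50-fold lower, or 40.0% of the scramble level with an interval of 30.8% to 51.9%, and rank 104 among the falls of named genes. The call held without each single array, with log2 changes of −1.50 to −1.19.

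The other AGPAT members did not pass the threshold. Lpcat1, the enzyme that makes the disaturated phosphatidylcholine of lung surfactant, read 109.6, 97.9 and 93.8 units in Zc3h10 shRNA cells, against 78.6, 77.0 and 89.9 in scramble cells. The groups did not overlap, although shRNA replicate 3 and scramble replicate 3 were close, and the log2 change was 0.30 ± 0.11 (123% of the scramble level, interval 104% to 145%). Lpcat4, an acyltransferase for lysophosphatidylethanolamine and lysophosphatidylcholine, read 39.5, 46.7 and 51.3 units in Zc3h10 shRNA cells, against 34.9, 32.6 and 39.0 in scramble cells. Here the lowest Zc3h10 shRNA array and the highest scramble array nearly touched, and the log2 change was 0.37 ± 0.12 (129%, interval 106% to 157%).

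Lclat1, an endoplasmic reticulum enzyme studied for the remodelling of cardiolipin and of phosphatidylinositol, was the member with the smallest difference. It read 263, 225 and 251 units in Zc3h10 shRNA cells, against 256, 231 and 244 in scramble cells, so the scramble range lay inside the Zc3h10 shRNA range. Its log2 change was 0.01 ± 0.10, with an interval of 86.5% to 118% of the scramble level. A change in either direction is therefore not excluded. Lpcat2, which makes platelet-activating factor in inflammatory cells, read 19.1, 18.2 and 16.6 units in Zc3h10 shRNA cells, against 18.8, 19.7 and 20.8 in scramble cells. Its log2 change was −0.14 ± 0.09 (90.7%, interval 78.0% to 105%), and its mean log2 levels of 4.17 in Zc3h10 shRNA cells and 4.31 in scramble cells were within the range of the sensory receptor genes.

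**Figure D2:**
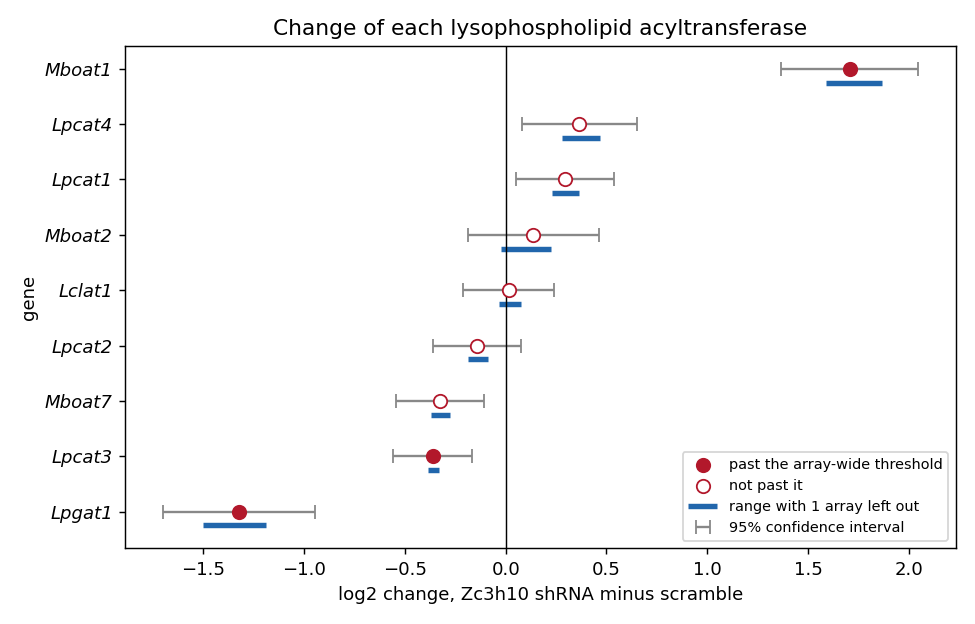
Log2 change of each acyltransferase, Zc3h10 shRNA minus scramble, with its 95% confidence interval (grey) and the range of the change when 1 of the 6 arrays was left out (blue); filled points passed the array-wide threshold. Mboat1 at 1.71 and Lpgat1 at −1.32 lie far outside the −0.36 to 0.37 covered by the other 7.

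The named genes most like each of these patterns were found by the root mean square distance over the 6 arrays between log2 profiles, each measured from its own scramble mean. For Mboat1 these were Thbs3, a thrombospondin gene (distance 0.15, log2 change 1.62 ± 0.12), Fap, the fibroblast activation protein gene (0.15, 1.63 ± 0.11), and Ptgs2, which encodes an inducible cyclooxygenase (0.20, 1.55 ± 0.13). For Lpgat1 they were Pdpr, a regulatory subunit gene of pyruvate dehydrogenase phosphatase (0.07, −1.35 ± 0.14), 2810030D12Rik (0.08, −1.29 ± 0.17) and the small nucleolar RNA gene Snord73a (0.08, −1.25 ± 0.17). The measure favours genes with a change of like size, and the scramble level of Fap (3.55) and the Zc3h10 shRNA level of 2810030D12Rik (3.56) were under the limit of 4.37, so the size of those changes is uncertain.

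The enzymes that release lysophospholipids, the substrates of the acyltransferases, included single genes that rose and fell, at a share near that of the array. Of 29 measured phospholipases A2 and related deacylating enzymes, 1 rose, 4 fell and 24 did not pass, beside 12.1% of all named genes called, or 21.7% of those that are not dim. Their median log2 change was −0.04, against 0.01 over all named genes, and 13 lay within the receptor range in both groups. Pla2g4a, the cytosolic phospholipase A2 that releases arachidonic acid, read 339.6, 329 and 357 units in Zc3h10 shRNA cells, against 207, 182 and 193 in scramble cells. It was higher on every Zc3h10 shRNA array, with a log2 change of 0.82 ± 0.09 (limma, adjusted p = 0.00159). The adipose phospholipase gene Plaat3 was at −1.06 ± 0.11 (limma, adjusted p = 0.00124), the mitochondrial and peroxisomal phospholipase gene Pnpla8 at −0.57 ± 0.09, and the phospholipase A1 gene Ddhd2 at −0.50 ± 0.09. Pla2g15, a lysosomal phospholipase, was at −0.44 ± 0.09 and lost its call without shRNA replicate 1 or 3 or scramble replicate 1 or 2 (adjusted p up to 0.0800).

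The acyltransferases of the first steps of glycerolipid synthesis, relatives of the AGPAT members, changed at 5 of 9 genes. That stands beside 12.1% of all named genes called, or 21.7% of those that are not dim. Of the 5, 4 fell and 1 rose, with a median of −0.29 over the 9. Whether the list differs from other genes was not tested. Gpat3, a glycerol-3-phosphate acyltransferase of adipocytes, read 134, 104 and 117 units in Zc3h10 shRNA cells, against 308, 288 and 273 in scramble cells, a log2 change of −1.30 ± 0.11 (limma, adjusted p = 0.000798). Agpat2, whose human gene is mutated in congenital lipodystrophy, was at −0.96 ± 0.10, the mitochondrial enzyme gene Gpam at −0.89 ± 0.10, and Agpat5 at −0.83 ± 0.14 (adjusted p = 0.0787 with the ordinary t statistic, which ended its call). The gene that rose was Agpat4, at 0.42 ± 0.09 (limma, adjusted p = 0.0200), and it lost its call without shRNA replicate 2 or 3 or scramble replicate 2 or 3 (adjusted p up to 0.0794). Among 5 measured relatives in the MBOAT family that use other substrates, 0 passed in limma (3 had an unadjusted p under 0.05). Of the 5, 3 lay within the receptor range in both groups, where a change is hard to see. The diacylglycerol acyltransferase gene Dgat1 was at −0.33 ± 0.11 (limma, adjusted p = 0.0993).

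Of 21 measured genes that build the phospholipid backbone and head group, 5 fell and 1 rose. Among all named genes 6.60% were lower and 5.51% higher, and 21.7% of those that are not dim were called. Their median log2 change was −0.22, and whether the list differs from other genes was not tested. Lpin1, a phosphatidate phosphatase gene, was at −1.13 ± 0.11 (limma, adjusted p = 0.000958) and Chpt1, which makes phosphatidylcholine from diacylglycerol, at −0.74 ± 0.08. Ptpmt1 and Crls1, which act on the way to cardiolipin, were at −1.08 ± 0.12 and −0.81 ± 0.10. Pcyt2, of phosphatidylethanolamine synthesis, was at −1.10 ± 0.15 (adjusted p = 0.0535 with the ordinary t statistic, which ended its call), and the gene that rose was Cds2, a CDP-diacylglycerol synthase, at 0.66 ± 0.10. Of 19 genes that break down lysophospholipids or signal through them, 2 rose and 0 fell in limma, with a median of −0.04 (4 higher and 3 lower at an unadjusted p under 0.05). That count is no higher a share than the 12.1% called among all named genes. The 2 were Gdpd1, which can form lysophosphatidic acid, at 0.91 ± 0.11 (limma, adjusted p = 0.00238), and Plpp3, which removes its phosphate, at 0.44 ± 0.11. The call of Plpp3 was lost without any 1 array other than shRNA replicate 1 (adjusted p up to 0.120) and with the ordinary t statistic.

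Genes for the synthesis, lengthening and desaturation of the acyl chains given to these enzymes, and for joining them to coenzyme A, included several that fell. Of 19 measured genes, 7 fell and 1 rose, with a median of −0.23, beside 6.60% lower and 5.51% higher among all named genes. Of the named genes that are not dim, 21.7% were called, and whether the list differs from them was not tested. The elongase gene Elovl3 read 121, 93.0 and 105 units in Zc3h10 shRNA cells, against 382, 488 and 505 in scramble cells, a log2 change of −2.11 ± 0.14 (limma, adjusted p = 0.000658). The elongase gene Elovl4 was at −1.20 ± 0.14, the acetyl-CoA carboxylase gene Acaca at −0.88 ± 0.09 and the fatty acid synthase gene Fasn at −0.87 ± 0.09. The desaturase genes Scd1 and Scd3 also fell, at −0.62 ± 0.10 and −1.01 ± 0.20. Scd3 lost its call without shRNA replicate 1 or 3 or scramble replicate 2 or 3, and with the ordinary t statistic. The acyl-CoA synthetase genes Acsl4, Acsl5 and Acsl6 did not pass. The gene that rose was Fads3, a sphingoid base desaturase of the fatty acid desaturase family, at 0.62 ± 0.09. The liver X receptor group, to which Lpcat3 answers in other settings, had 7 measured genes. Of these, 4 fell and 0 rose in limma, with a median of −0.54 (5 lower and 0 higher at an unadjusted p under 0.05). All named genes again give 6.60% lower and 5.51% higher, or 21.7% called of those that are not dim. Whether the group differs from other genes, or bears on the fall of Lpcat3, was not tested. Srebf1 was at −0.90 ± 0.09, Abcg1 at −0.78 ± 0.08, Abca1 at −0.69 ± 0.10 and the receptor gene Nr1h3 at −0.54 ± 0.14. The target genes Mylip (−0.02 ± 0.09), Apoe (−0.10 ± 0.12) and Smpdl3a (−0.30 ± 0.11) did not pass. Nr1h3 lost its call without any 1 array other than scramble replicate 2 (limma, adjusted p = 0.0438 with all arrays, up to 0.140 with 1 left out), and also with quantile normalization and the ordinary t statistic (adjusted p up to 0.164 over all alternatives).

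**Figure D3:**
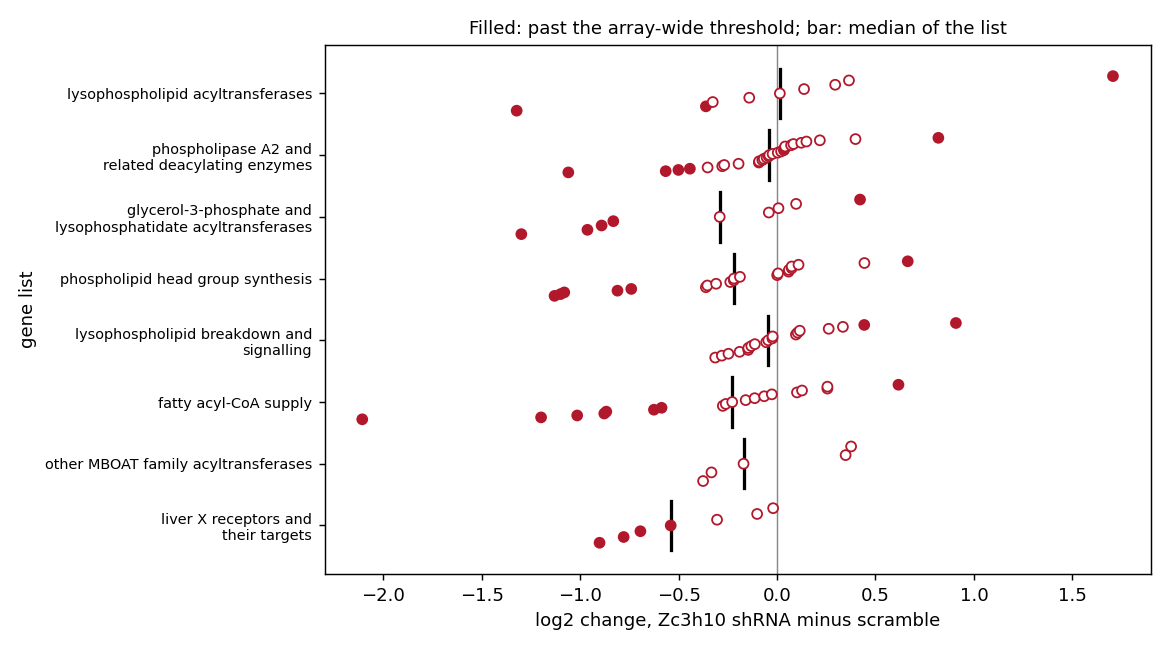
Log2 change, Zc3h10 shRNA minus scramble, of every measured gene in the acyltransferase list (top) and in 7 lists of the surrounding pathway; filled points passed the array-wide threshold and black bars are list medians, from 0.01 for the acyltransferases to −0.54 for the liver X receptor group. Mboat1 is the rightmost point of the plot and Elovl3 the leftmost.

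The cultures also differed in markers of cell state. Beside the counts below stand 6.60% of all named genes that fell and 5.51% that rose. Of the named genes that are not dim, 21.7% were called. Of 9 measured mature adipocyte markers, 9 fell, and their summed intensity was 11024 to 11773 on the Zc3h10 shRNA arrays, against 19695 to 21987 on the scramble arrays. Of 9 measured mesenchymal progenitor and fibroblast markers, 4 rose and Pdgfra fell, with a median log2 change of −0.03. Sums over the list, in which the bright genes Prrx1, Pdgfrb and Pdgfra weigh most, had intensities of 3882 to 4256 in Zc3h10 shRNA cells and 3172 to 3367 in scramble cells. Fap, one of the 4 that rose, is also among the genes most like Mboat1. The part of these shifts in the changes of Mboat1, Lpgat1 and Lpcat3 was not tested, and in a whole culture fewer cells of a type and less RNA per cell cannot be told apart. Of 6 macrophage and 5 endothelial markers 0 passed in limma, and 0 had an unadjusted p under 0.05. The summed macrophage intensity was 107 to 122 in Zc3h10 shRNA cells and 117 to 127 in scramble cells, and the defining genes Adgre1, Ptprc, Csf1r and Itgam were within the receptor range in both groups. Cd68 (means of 40.3 units in Zc3h10 shRNA cells and 44.6 in scramble cells) and Cd14 (39.6 in each) were above that range and gave most of the sum. All 5 endothelial markers were within that range, with sums of 75.3 to 81.0 in Zc3h10 shRNA cells and 73.2 to 82.9 in scramble cells.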

How the data were processed

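Total RNA from 6 cultures was hybridised, biotin labelled, to 1 single-colour array each. The deposited values are probe set intensity values on a linear scale, 1 per probe set and array. The submitters' processing notes name Affymetrix Expression Console and Partek 6.6. The background correction, summarisation and normalization steps were not given in the sources used here, and log2 changes of dim probe sets depend on it. No detection calls were used. Array medians were nearly equal, and whether the arrays had been scaled was not tested.

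Log2 was taken with no pseudocount, and 33079 probe sets were fitted with limma 3.58.1 in R 4.3.3 (lmFit, eBayes, 4 residual degrees of freedom, two-sided). Names came from the platform annotation: 23043 probe sets had 1 symbol, 1740 several and 8296 none, and symbols were checked by gene number against RefSeq (GRCm38.p6). The probe set with the highest mean stood for a gene. The 3 arrays per group limit the precision. The members, lists, tests and alternatives were chosen with earlier results of these data known. All members were named, with up to 4 genes past the threshold per pathway list by smallest p, and 3 most like genes for Mboat1 and for the member that fell most. Pla2g15, Agpat4, Dgat1, Pcyt2, Cds2, Fads3, Scd1, Scd3, Acsl4, Acsl5, Acsl6, Mylip, Apoe, Smpdl3a and the markers singled out were named after their values were seen. Of the pathway lists, 109 genes were measured and 14 were not analysed here. On simulated data with 200 changed of 33079 probe sets, drawn from the brighter ones, the share recovered was 34.3% at 1.5-fold, 67.2% at 2-fold and 92.4% at 3-fold, with 4 calls among 32879 unchanged ones. The simulated noise was independent between probe sets. The real contrast called 3238 probe sets, so these shares need not hold for these data. Alternatives were 3 other scalings, an offset, 2 filters on dim probe sets, an intensity trend, an ordinary t statistic, a replicate block, all probe sets of a gene averaged, and each array left out.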

Additional observations from a re-analysis of the deposited data

How the results depend on the processing

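Mboat1 and Lpgat1 passed the threshold under all 16 alternatives, with log2 changes of 1.21 to 1.87 and −1.50 to −1.19. This describes values that were known when the members were chosen. Averaging all probe sets of a gene could not alter the log2 change of any member, since each had 1 probe set. With the ordinary t statistic Lpgat1 passed only narrowly. Lpcat3 passed under 8 of 16 and Mboat7 under 4 of 16, both with the same sign throughout. Mboat2, Lpcat1, Lpcat2, Lpcat4 and Lclat1 passed under none. Signs turned for Lclat1 (−0.0060 with arrays centred on their median, −0.034 to 0.077 with 1 array left out) and for Mboat2 (−0.022 to 0.22 with 1 array left out), neither of which passed. The members past the threshold numbered 2 to 4 across settings, and 2 without any 1 array.

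The probe sets past the threshold numbered 1972 with the ordinary t statistic, and 1807 to 2578 with 1 array left out. For the list of lysophospholipid breakdown and signalling, the count of 2 became 6 (3 higher and 3 lower) with the offset of 32, with probe sets under the median left out and with an intensity trend, and 1 with the ordinary t statistic. With 1 array left out it was 1 or 2. For the other MBOAT enzymes, the count of 0 became 1 with probe sets under the median left out and with an intensity trend, and was 0 or 1 with 1 array left out. The causes of these shifts were not tested. The filters tested fewer probe sets and the left-out fits used fewer arrays, while the offset and the intensity trend kept all probe sets. With replicate number as a replicate block, 2 members passed, the lysophospholipid list had 1 call, and Lpcat3 (−0.36), Agpat4, Plpp3 and Nr1h3 lost their calls. The numbers need not pair the cultures: deviations from the group means of equally numbered arrays correlated at 0.08, −0.0046 and 0.04. The dim probe sets of Mboat2 and Lpcat2 limit what can be said of those genes.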
